A study of Mus musculus with 42 samples.

Results

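Brightly fluorescent Lgr5-expressing cells of the pylorus, the outlet region of the stomach, were set against the same bright gate of the colon. The members were chosen by sample title. They are the 4 pylorus and 3 colon Lgr5Hi samples of the Lgr5-EGFP-IRES-CreERT2 mouse line, 7 of the 42 samples of the series, and every one of 22180 genes was compared between them. In this line a green fluorescent protein and a tamoxifen-inducible Cre recombinase are made from the Lgr5 locus, so that fluorescence marks cells that transcribe Lgr5. The animals were untreated adults of at least 7 to 8 weeks, of either sex, and they carried the reporter allele in both groups. The spread between samples was estimated from all 18 sorted samples of the line. Beside the 7, these are 4 pylorus and 3 colon samples of dimly fluorescent cells (Lgr5Lo) and 2 Lgr5Hi and 2 Lgr5Lo samples of the small intestine. Another reporter line, Lgr5-EGFP-DTR, gave 3 pylorus Lgr5Hi samples, whose levels are given beside some results and entered only the alternative with all 42 arrays. Their titles and descriptions name the DTR line while their mouse model field names the IRES line, and the titles were followed here, so which line these levels belong to rests on the titles.

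Glands of the pylorus and crypts of the colon are both renewed from cells at their base that carry Lgr5, a receptor for R-spondins that amplifies Wnt signalling and is itself a Wnt target gene. The pyloric gland makes mucous cells, surface pit cells and endocrine cells that release gastrin, and its regional identity is tied to the transcription factors Sox2, Gata4 and Pdx1. The colonic crypt makes absorptive colonocytes, goblet cells and a goblet-like secretory cell at the crypt base, and Cdx2 holds its intestinal identity.

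Levels are log2 array intensities, and a difference is pylorus minus colon on the log2 scale, followed by its standard error. The medians of the 7 arrays lay between 3.83 and 4.10. No detection calls came with the values, and where 1 group lies near or below these medians its difference is taken as a lower bound. Adjusted p-values come from limma, by Benjamini-Hochberg over the whole table, and a gene is called higher or lower at an adjusted p under 0.05. Arrays correlated at 0.942 to 0.970 within the pylorus Lgr5Hi group, at 0.959 to 0.977 within the colon Lgr5Hi group and at 0.904 to 0.932 between them. The labelled protocol describes how pyloric glands were isolated. How colonic crypts were isolated is not given in the sources used here, so organ and preparation cannot be told apart. These are bulk samples, in which fewer cells of a type and less RNA per cell cannot be told apart.

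The regional markers went with the labels. Muc6, the gland mucin of the stomach, stood at 12.04, 12.44, 11.66 and 12.44 in the 4 pylorus Lgr5Hi arrays and at 4.06, 4.29 and 4.16 in the 3 colon Lgr5Hi arrays. Gast, the gastrin gene, stood at 12.52, 12.89, 12.87 and 12.75 in pylorus and at 5.05, 4.83 and 5.11 in colon. In colon Muc6 lay near the array medians and Gast above them, and in pylorus both genes lay near the top of the scale. Reg4, a lectin of the secretory cells of the colonic crypt base, stood at 3.68, 4.15, 4.17 and 4.29 in pylorus and at 10.92, 11.46 and 11.12 in colon. Lgr5 itself, on which the cells were sorted, stood at 8.79, 8.08, 8.14 and 9.12 in pylorus and at 7.01, 7.72 and 8.35 in colon. These groups overlapped, and the difference of 0.84 ± 0.35 was not called (adjusted p = 0.19). The other Lgr5 probe set gave 0.37.

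The pylorus Lgr5Hi array of replicate 3 stood apart from the other pyloric arrays. Its level of Cdx2 was 6.35, beside 4.00, 4.79 and 4.44 in replicates 1, 2 and 4, and its level of Sox2 was 3.56, beside 6.70, 7.35 and 7.03. It was also the highest pyloric array for goblet and colonocyte genes such as Muc2 (7.54), Guca2a (8.91) and Spink4 (10.66). Reg4, Retnlb and Cdh17 were as low on it as on the other pyloric arrays, and Muc6 and Gast were high. Every list count below was therefore also taken without that array, and counts that differ are given. The source of these transcripts on it was not tested.

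Over all genes, 1611 of 22180 were called different between the bright cells of the 2 organs (7.26%), of which 661 were higher in pylorus (2.98% of all genes) and 950 lower (4.28%). At least 2-fold differences were called at 501 genes higher in pylorus (2.26%) and 746 lower (3.36%). Counts of list members below are to be read against these shares of all genes. The median difference over all genes was 0.03. Without pylorus replicate 3 the number called was 1633 (7.36%), and 1390 genes were called both times, all with the same sign. The 4 pyloric and the 3 colonic values did not overlap at 3884 genes (17.5%), and at 1521 of these the difference was also called (6.86%).

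**Figure D1:**
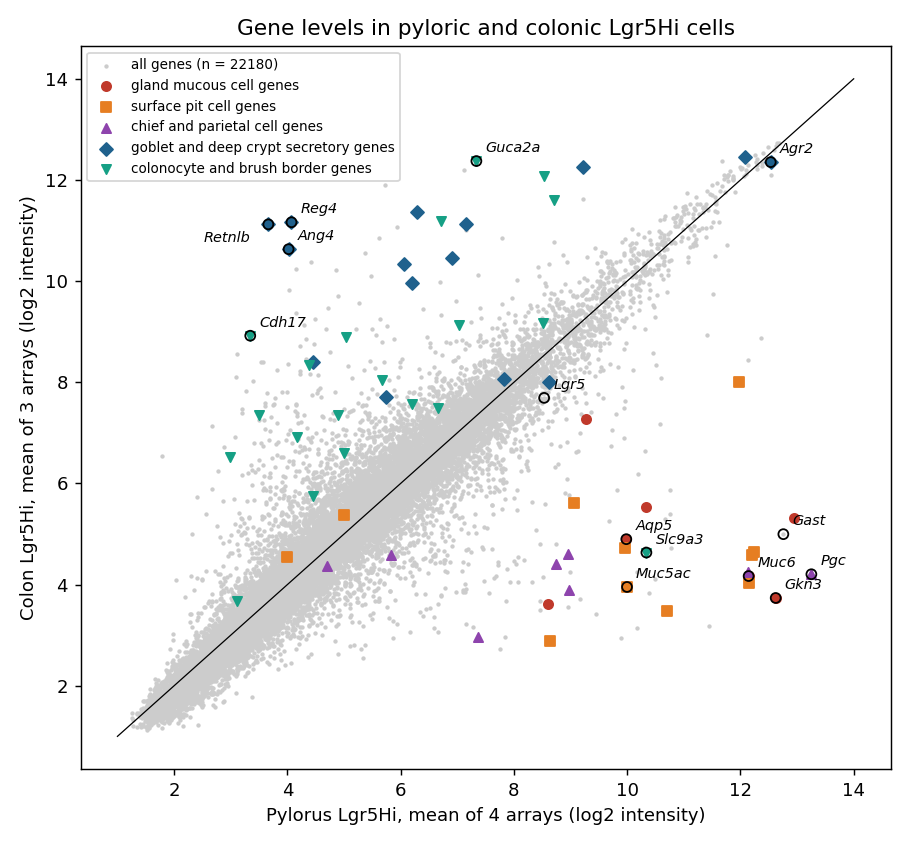
Mean log2 level of each of the 22180 genes in pylorus Lgr5Hi cells (x axis, 4 arrays) and colon Lgr5Hi cells (y axis, 3 arrays). The line marks equal levels, coloured symbols mark members of 5 gene lists, and circled genes are named: Pgc, Gkn3, Muc6 and Gast lie far to the lower right, Reg4, Retnlb and Ang4 far to the upper left, and Lgr5 close to the line.

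Transcription factors of regional identity separated the 2 populations. Of 7 gastric identity factors 6 were called higher in pylorus and none lower, with a median difference of 2.38. Sox2, a foregut factor, averaged 6.16 ± 1.76 (SD, n = 4) in pylorus and 3.06 ± 0.44 (n = 3) in colon, a difference of 3.10 ± 0.60 (adjusted p = 0.0016). On pylorus replicate 3 Sox2 (3.56) lay just above the highest colonic array (3.51), and without pylorus replicate 3 the difference was 3.96. Gata5 was higher by 3.53 ± 0.30, Nkx6-3 by 3.52 ± 0.31, Foxq1 by 2.38 ± 0.27, Gata4 by 2.33 ± 0.28 and Pdx1 by 1.78 ± 0.24. Pdx1, which marks the caudal foregut, was the tightest of these, at 6.58, 6.67, 6.53 and 6.57 in pylorus and 5.03, 4.64 and 4.76 in colon. The groups did not overlap at any of the 6. Sox21 was not called (0.68). The other probe set of Foxq1 gave 0.86.

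All 6 measured factors of intestinal and colonic identity were called lower in pylorus, with a median of -2.44. Cdx2 stood at 4.00, 4.79, 6.35 and 4.44 in pylorus and at 6.36, 7.67 and 8.01 in colon, a difference of -2.45 ± 0.44 (adjusted p = 8.27e-04). The pyloric value of replicate 3 lay just below the lowest colonic value. Without pylorus replicate 3 the difference was -2.94. Its relative Cdx1 fell by 2.54 ± 0.43, Isx, an intestinal homeobox repressor, by 2.53 ± 0.33 and Hnf4g by 2.42 ± 0.39. The nuclear receptors Hnf4a and Nr1i2 fell by 1.21 ± 0.27 and 1.77 ± 0.40. The call on Hnf4a was lost without colon replicate 2 (difference -1.01) or colon replicate 3 (-1.05), and that on Nr1i2 without colon replicate 3 (-1.55).

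Hox genes, which carry position along the body axis, were lower in pylorus wherever they were called. In Hox groups 8 to 13 it was 7 of 18 measured genes, with a median of -0.55 over the list. Hoxd13, of the most posterior group, stood at 3.81, 3.53, 3.55 and 3.48 in pylorus and at 6.92, 6.61 and 8.24 in colon (-3.66 ± 0.35). Hoxb13 was lower in pylorus too (-3.35 ± 0.33), as were Hoxa9 (-2.51 ± 0.30), Hoxb9 (-2.00 ± 0.27) and Hoxa13 (-1.97 ± 0.22). In Hox groups 1 to 7, 5 of 18 were called lower (6 without pylorus replicate 3), among them Hoxa5 (-2.41 ± 0.26), Hoxa2 and Hoxb6 (both -2.00). No gene of either Hox list was called higher. The pyloric means of the called genes lay near the array medians or below them, as for Hoxa5 at 2.75, so their differences are taken as lower bounds. In small intestine Lgr5Hi cells (n = 2) Hoxd13 averaged 3.18, Hoxb13 3.00 and Hoxa13 3.33, all below the lowest median of the 7 arrays.

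**Figure D2:**
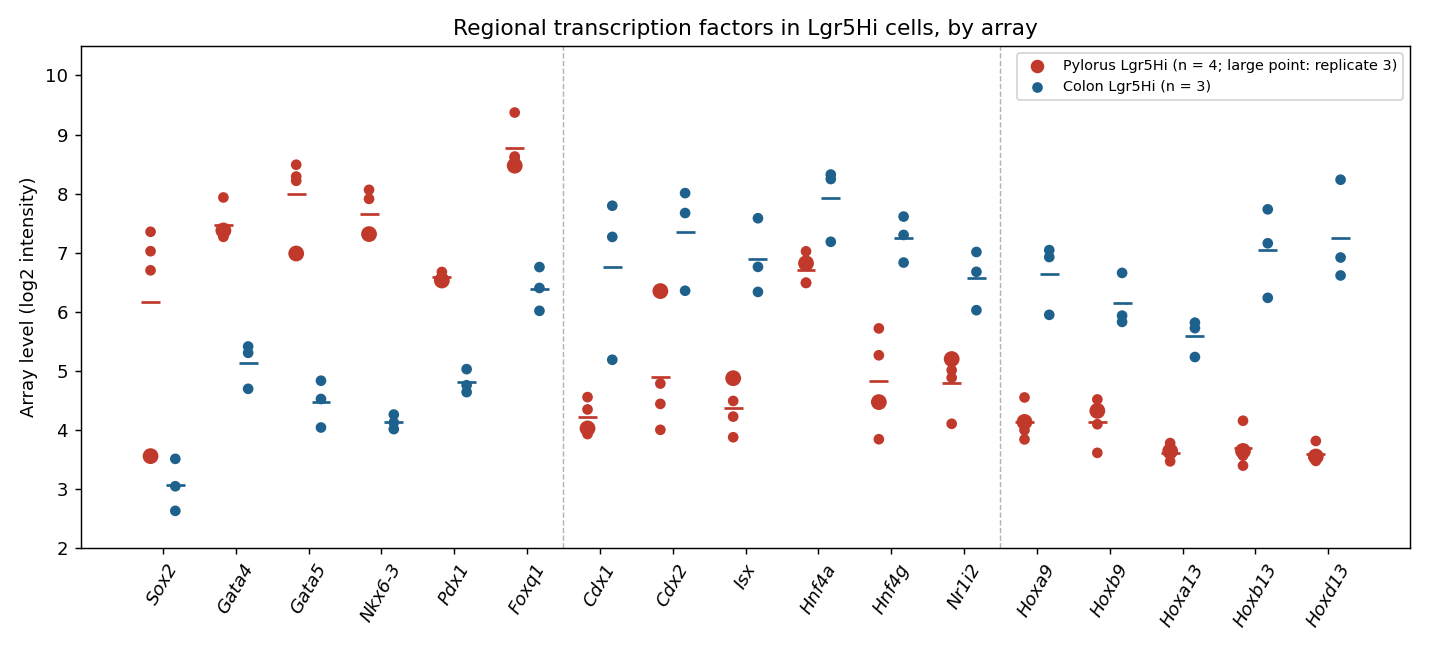
Log2 level of 6 gastric factors, 6 intestinal and colonic factors and 5 Hox genes on each Lgr5Hi array, pylorus left (n = 4) and colon right (n = 3), with a line at each group mean and a larger point for pylorus replicate 3. Pylorus replicate 3 (3.56) lies just above the highest colonic value (3.51) for Sox2 and near the lowest colonic value for Cdx2, and with the other pyloric arrays for Pdx1 and the Hox genes.

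The largest rises in pylorus were genes of gastric secretion. All 7 gland mucous cell genes were called higher, with a median of 5.09. Beside Muc6 (7.98 ± 0.30) these included Gkn3, a gastrokine of gland mucous cells (8.89 ± 0.29), and Tff2, the trefoil peptide packed with Muc6 mucin (7.63 ± 0.49). Tff2 was high on every pyloric array (12.88 to 13.01), and in colon it stood at 4.69, 6.54 and 4.72. Aqp5, the water channel in the title of the study, stood at 9.81, 10.34, 9.14 and 10.65 in pylorus and at 5.01, 5.16 and 4.53 in colon, a difference of 5.09 ± 0.36 (adjusted p = 5.47e-09). A4gnt, the enzyme that caps gland mucin with a terminal N-acetylglucosamine, was higher by 4.80 ± 0.53. Bpifb1 was higher by 4.98 ± 0.86, with 6.35 on pylorus replicate 3 and 9.01 to 9.91 on the other pyloric arrays, and by 5.73 without it. Creb3l4, a membrane-bound transcription factor, was higher by 1.99 ± 0.28.

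Genes of chief and parietal cells were high as well, 7 of 8 being called higher with a median of 4.37. Pgc, the pepsinogen C gene, showed the largest difference of all genes, with 13.31, 13.27, 13.07 and 13.35 in pylorus and 4.01, 4.69 and 3.92 in colon. Its difference of 9.05 ± 0.26 corresponds to a level at least 529-fold higher in pylorus. Cblif, the gastric intrinsic factor, was higher by 7.88 ± 0.29 and Pga5, a pepsinogen, by 4.35 ± 0.55. The acid pump subunits Atp4b (5.09 ± 0.35) and Atp4a (4.34 ± 0.31) were higher too. Bhlha15, a factor of mature secretory cells, was higher by 1.23 ± 0.33, a call lost without pylorus replicate 1 (1.04), pylorus replicate 4 (1.18) or colon replicate 1 (0.95).

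Of 11 surface pit cell genes 9 were called higher, with a median of 5.75. Gkn2 and Gkn1, the gastrokines of pit cells, were higher by 8.12 ± 0.26 and 7.61 ± 0.30, and Tff1, their trefoil peptide, by 7.59 ± 0.21. Psca, a surface antigen, was higher by 7.22 ± 0.44 and Cldn18, the claudin of gastric epithelium, by 5.24 ± 0.23. In bright pyloric cells of the samples titled DTR (n = 3) some pit and parietal genes had other levels. Psca averaged 5.44 and Gkn1 8.90 there, beside 10.70 and 12.20 in the IRES line, and Atp4a averaged 5.97 beside 8.74. Cldn18 averaged 9.95 beside 9.96, and Ctse, a pit cell protease, 12.40 beside 11.98. Muc6 averaged 12.41 in the DTR line beside 12.14 in the IRES line, and Aqp5 10.44 beside 9.98. These lines were not tested against each other.

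Of 15 goblet and deep crypt secretory genes 11 were called lower in pylorus and none higher, with a median of -3.75. Retnlb, a goblet cell protein that acts on bacteria, stood at 3.61, 3.32, 3.42 and 4.31 in pylorus and at 11.03, 11.41 and 10.92 in colon (-7.46 ± 0.36). Reg4 (-7.09 ± 0.63) and Ang4, an antimicrobial ribonuclease (-6.61 ± 0.48), were lower as well. For Retnlb and Reg4 all pyloric arrays lay near the array medians. Muc2, the gel-forming mucin of goblet cells, stood at 5.93, 5.21, 7.54 and 6.46 in pylorus and at 10.11, 12.12 and 11.89 in colon, a difference of -5.09 ± 0.89. Atoh1, the factor that commits intestinal cells to the secretory fate, was lower as well (-3.96 ± 0.33), and so was Kit, a receptor on deep crypt secretory cells (-1.95 ± 0.27). The 4 not called were Agr2, Spdef, Galnt12 and Klk1. Agr2, which folds mucins, averaged 12.54 in pylorus and 12.35 in colon.

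Colonocyte and brush border genes were lower at 15 of 20, with a median of -2.60, or at 14 without pylorus replicate 3. Cdh17, an intestinal cadherin, stood at 2.97, 3.20, 3.27 and 3.94 in pylorus and at 8.99, 8.99 and 8.79 in colon (-5.58 ± 0.41). Guca2a, the guanylin gene, differed by -5.04 ± 0.60, Cdhr5, a cadherin of the microvillus tip, by -3.85 ± 0.49 and Mep1a, a brush border protease, by -3.53 ± 0.38. Guca2a is a case where pylorus replicate 3 was high, with 8.91 beside 6.51, 6.48 and 7.46, and without it the difference was -5.56. A single member went the other way. Slc9a3, a sodium-hydrogen exchanger, stood at 10.39, 10.65, 9.77 and 10.56 in pylorus and at 4.97, 5.05 and 3.89 in colon (5.71 ± 0.42).

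**Figure D3:**
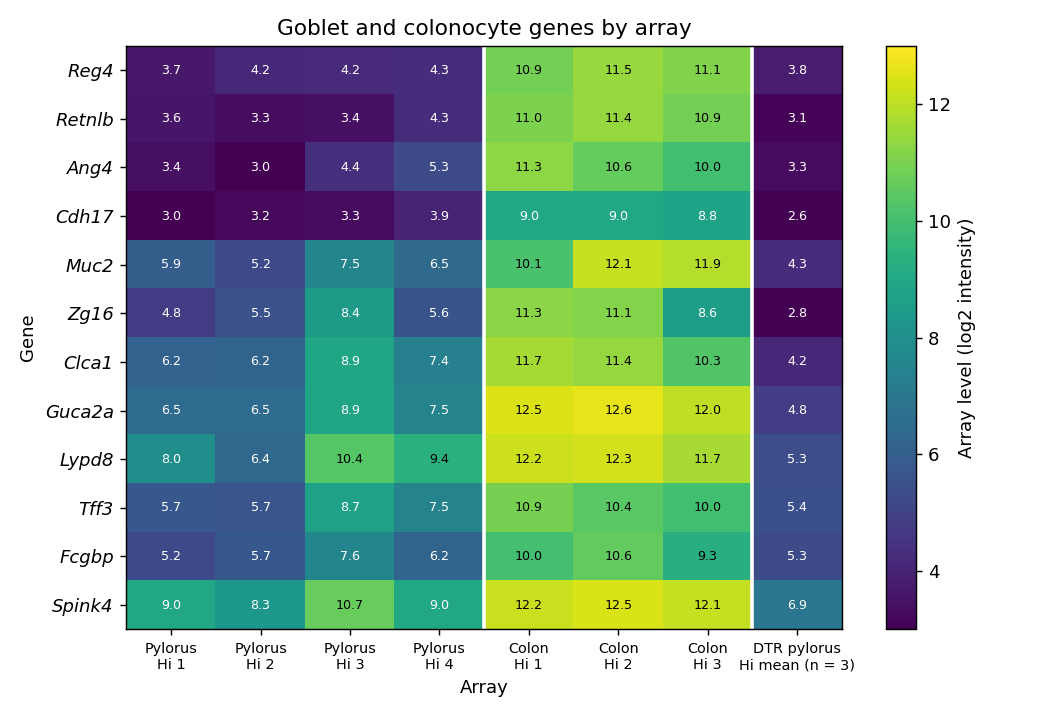
Log2 level of 12 goblet and colonocyte genes on each pylorus and colon Lgr5Hi array, with the mean of 3 pylorus Lgr5Hi arrays of the DTR line at the right. Reg4, Retnlb, Ang4 and Cdh17 are low on all 4 pyloric arrays, whereas pylorus replicate 3 is the highest pyloric array for Muc2, Zg16, Clca1, Guca2a and Spink4.

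Nox1, the NADPH oxidase of colonic epithelium, showed the largest difference among 8 measured oxidase genes, of which 3 were called lower (4 without pylorus replicate 3) and none higher. It stood at 2.62, 3.20, 3.52 and 3.13 in pylorus and at 8.37, 8.15 and 9.13 in colon, a difference of -5.44 ± 0.32 (adjusted p = 2.82e-10). Its activator Noxa1 was lower (-2.26 ± 0.26), as was Duox2, a dual oxidase (-2.89 ± 0.43). In small intestine Lgr5Hi cells Nox1 averaged 3.66 and Noxa1 7.41. The promoters of Nox1 and Gast are shown because their groups lie far apart, in opposite directions. Each sequence is the 250 bases before a start given for the gene from RefSeq on build GRCm38.p6, read along the gene's strand. The Nox1 stretch lies at chrX:134111855-134112104 on the minus strand and the Gast stretch at chr11:100334157-100334406 on the plus strand. The Nox1 stretch lies inside the gene's annotated span (134086421 to 134137711), so the start used is not the upstream end of that span. Capitals mark a core of the CDX motif, TTTATG or TTTACG, searched on both strands.
Nox1: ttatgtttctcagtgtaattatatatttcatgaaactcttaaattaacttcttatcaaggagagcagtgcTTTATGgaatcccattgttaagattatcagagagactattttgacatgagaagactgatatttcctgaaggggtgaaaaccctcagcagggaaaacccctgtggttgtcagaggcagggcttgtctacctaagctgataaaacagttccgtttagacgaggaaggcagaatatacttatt
Gast: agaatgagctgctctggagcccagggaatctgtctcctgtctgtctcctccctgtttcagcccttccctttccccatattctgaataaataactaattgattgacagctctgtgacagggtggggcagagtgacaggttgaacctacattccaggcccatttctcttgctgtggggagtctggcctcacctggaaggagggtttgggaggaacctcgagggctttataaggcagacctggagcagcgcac

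The stretch before Nox1 holds 1 such match, which begins 180 bases before the start used, and the stretch before Gast holds 0. With the 50 bases after the start included, Nox1 holds 2, the second beginning at position 43 from the start, and Gast still holds 0. Over windows from 250 bases before to 50 after such a start, the CDX core was found in 12.9% of 20611 windows of all genes with one. It was found in 14% of 179 windows of genes called at least 4-fold higher in pylorus and in 17.3% of 196 windows of genes called at least 4-fold lower. A GATA core, AGATAA, was found in 9.66% of all windows, 14% of those of higher genes and 13.3% of those of lower genes. A SOX core, ACAATG, was found in 10.7% of all windows, 17.3% of those of higher genes and 10.7% of those of lower genes. These letters are short and the shares are descriptions of the windows.

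Genes of Wnt signalling and stem cell marker genes were called in both directions. Of 16 measured Wnt target and feedback genes 2 were called higher in pylorus (3 without pylorus replicate 3) and 1 lower, with a median of 0.46, where 7.26% of all genes were called. At an unadjusted p under 0.05 it was 10 of the 16, against 18.1% of all genes. Nkd1, a feedback inhibitor, stood at 6.43, 5.28, 4.70 and 5.78 in pylorus and at 3.79, 3.54 and 3.67 in colon (1.88 ± 0.31). Sp5 was higher by 0.96 ± 0.26, a call that was lost without pylorus replicate 2 (0.87) or 4 (0.92) or without colon replicate 1 (0.83) or 3 (0.92). Myc, a Wnt target that drives growth, was lower (-1.27 ± 0.28). Axin2, a general Wnt target, was not called and its groups overlapped, with 6.47, 5.92, 5.29 and 6.48 in pylorus and 6.17, 6.94 and 7.77 in colon. Its difference of -0.92 ± 0.35 did pass the threshold without colon replicate 1 (-1.31, adjusted p = 0.032). The other Axin2 probe set gave -0.32 with all arrays. Znrf3, the ligase that clears Wnt receptors, was not called either (0.81 ± 0.28), and without pylorus replicate 3 it was (1.12, adjusted p = 0.003).

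Among 25 Wnt ligands, receptors and inhibitors 1 was called higher and 1 lower (2 and 0 without pylorus replicate 3), and the median was -0.02. The receptor Fzd4 was higher at 7.26, 6.97, 6.92 and 7.13 in pylorus, against 4.86, 5.27 and 5.14 in colon (1.98 ± 0.24). The receptor Fzd7 was lower by a smaller margin (-0.83 ± 0.25, adjusted p = 0.0471). That call was lost without pylorus replicate 2 (-0.87), 3 (-0.73) or 4 (-0.79) and without colon replicate 2 (-0.90) or 3 (-0.54). Fzd3 was not called with all arrays (0.76) and was called without pylorus replicate 3 (1.15).

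Of 16 intestinal stem cell markers 1 was called higher and 3 lower (2 without pylorus replicate 3), with a median of -0.06, and 8 had an unadjusted p under 0.05. Prom1, the CD133 gene, averaged 9.91 ± 0.30 in pylorus and 7.91 ± 0.23 in colon (1.99 ± 0.23). Clca4a was lower (-2.64 ± 0.43), but its other probe set gave 0.29. Cdca7, a Myc-responsive gene, differed by -2.30 ± 0.51 with overlapping groups, and its call was lost without colon replicate 3 (-1.81). Rgmb, a BMP co-receptor, differed by -0.98 ± 0.27 and lost its call without pylorus replicate 1 (-0.92) or 3 (-0.84) or colon replicate 2 (-0.94) or 3 (-0.81).

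Of 15 genes proposed as gastric stem cell markers 4 were called higher and 2 lower, with a median of 0.34, and 11 had an unadjusted p under 0.05. The higher ones were Aqp5, Sox2, Bhlha15 and Runx1, a blood and epithelial stem cell factor, at 6.71, 6.45, 6.72 and 6.95 in pylorus and 4.96, 5.09 and 5.43 in colon (1.55 ± 0.30). Stmn1, which binds tubulin in dividing cells, was lower (-1.35 ± 0.28). Iqgap3 was lower by -0.87 ± 0.26 (adjusted p = 0.0484), and lost its call without pylorus replicate 1, 2 or 4 or colon replicate 3, where the value was between -0.86 and -0.52. Cd44, a surface receptor for hyaluronan, overlapped between the groups and was not called (1.07 ± 0.38).

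Of 21 measured G2/M and mitosis genes 14 were called lower (13 without pylorus replicate 3) and none higher, with a median of -1.13. Cenpe, a kinetochore motor, stood at 5.45, 5.47, 5.65 and 5.53 in pylorus and at 7.29, 6.77 and 7.31 in colon (-1.60 ± 0.26). Kif11, the spindle motor, differed by -1.60 ± 0.28, Top2a, the topoisomerase of dividing cells, by -1.44 ± 0.29 and Cdc20, an activator of mitotic exit, by -1.26 ± 0.22. The groups did not overlap at any of these 4 genes.

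Of 17 measured G1/S and replication genes 5 were called lower (6 without pylorus replicate 3), none higher and 12 not called, with a median of -0.92. Hells, a chromatin remodeller of replicating cells, stood at 5.62, 6.02, 5.11 and 5.03 in pylorus and at 7.56, 7.20 and 7.39 in colon (-1.94 ± 0.33). Mcm6, a subunit of the replicative helicase, was lower as well (-1.32 ± 0.26). Mcm5 (-1.12 ± 0.28), Rrm1 (-0.91 ± 0.22) and Dut (-1.01 ± 0.27) lost their calls without colon replicate 3, at -0.79, -0.79 and -0.94. Dut was lost without other single arrays too, and its mean over probe sets was not called (-0.47). Pcna, the sliding clamp, missed the threshold (-0.71, adjusted p = 0.0517). Among 10 CDK inhibitors and D cyclins, Cdkn1c, the p57 inhibitor, was the single call and was higher in pylorus (1.25 ± 0.24), where 7.26% of all genes were called.

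Dim cells were compared between the same organs to see whether such differences belong to the bright gate. Between Lgr5Lo cells 1441 genes were called (6.5%), 570 higher in pylorus (2.57%) and 871 lower (3.93%). Of these, 802 were also called between Lgr5Hi cells in the same direction (3.62% of all genes, 49.8% of the Lgr5Hi calls and 55.7% of the Lgr5Lo calls), and 3 in the opposite one (0.0135%). Arrays with the same number in an organ deviated together, so the 2 gates are not independent. Without colon Lgr5Lo replicate 3 the Lgr5Lo count was 958. The regional factors went the same way in dim cells, with 6 of 7 gastric ones higher and 6 of 6 intestinal ones lower. Of the gastric cell lists, 9 of 11 pit genes (median 6.76) and 7 of 8 chief and parietal genes (6.79) were called higher between Lgr5Lo cells. So were 5 of 7 gland mucous cell genes (5.54). Goblet and deep crypt secretory genes were lower there at 12 of 15 (median -3.99). The excess of these gastric genes in pylorus was thus not confined to the bright gate. In the replication and mitosis lists, by contrast, 1 gene was called higher and none lower, and the medians between Lgr5Lo cells were 0.27 and 0.40.

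The difference of differences between the gates was called at 65 genes (0.293%), 16 higher (0.0721%) and 49 lower (0.221%) in the bright gate. With organ and replicate number as a random block it was called at 196 (0.884%), 68 higher (0.307%) and 128 lower (0.577%), and these included all 65. The count without the block moved with single arrays. It was 38, 39, 111 and 21 without pylorus Lgr5Hi replicates 1 to 4, and 39, 47, 111 and 38 without pylorus Lgr5Lo replicates 1 to 4. It was 25, 30 and 6 without colon Lgr5Hi replicates 1 to 3, and 35, 4 and 7 without colon Lgr5Lo replicates 1 to 3.

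Among the replication and mitosis genes 3 and 5 were called for this difference, and 5 and 8 with the random block. Kif11 averaged 6.11 in pylorus and 7.71 in colon Lgr5Hi cells, and 7.35 ± 0.29 (n = 4) in pylorus and 6.70 ± 0.28 (n = 3) in colon Lgr5Lo cells, a difference of differences of -2.25 ± 0.39 (adjusted p = 0.0167). Nusap1 (-2.05 ± 0.35), Cenpe (-1.94 ± 0.37), Cdc20 (-1.66 ± 0.31), Hells (-2.35 ± 0.47), Mcm6 (-1.84 ± 0.37) and Rrm1 (-1.74 ± 0.31) were also called, and Birc5 (-1.61), a gene outside the naming rule, was the remaining one. For each of these genes the pyloric mean was the lower one among bright cells and the higher one among dim cells.

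**Figure D4:**
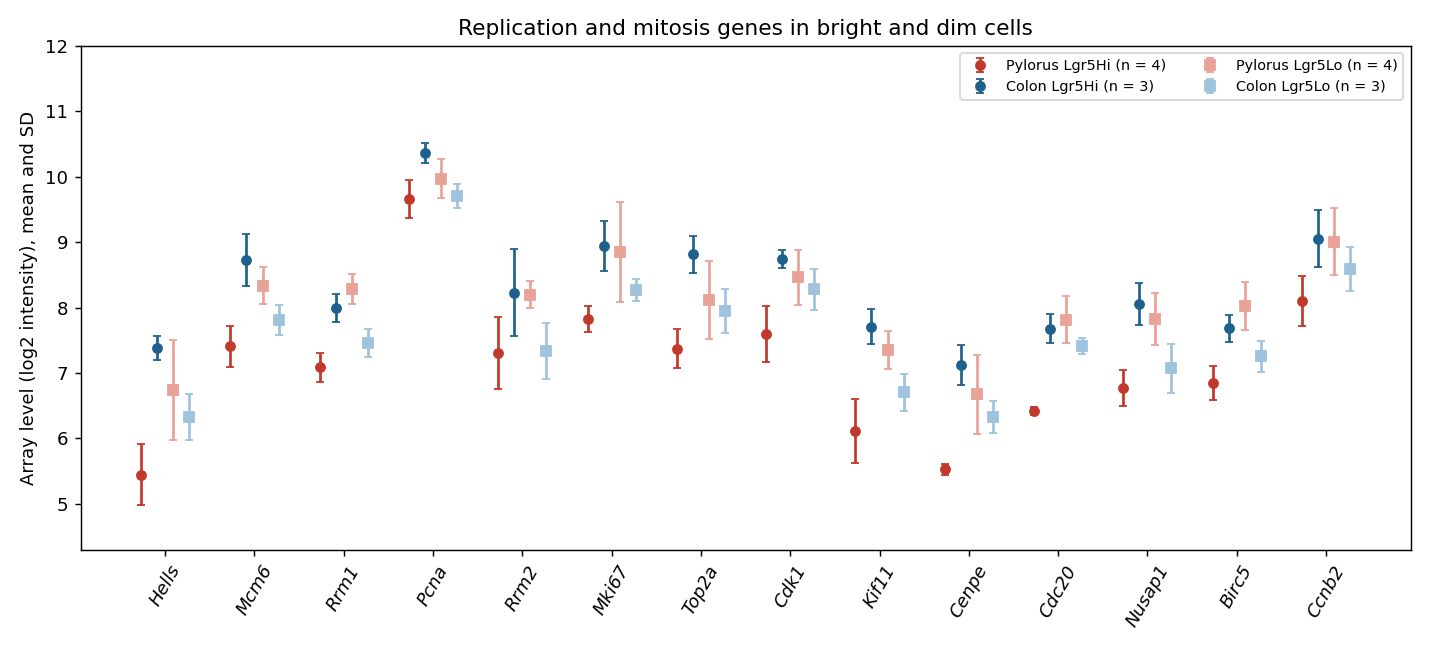
Log2 level (mean and SD) of 14 replication and mitosis genes in pylorus Lgr5Hi (n = 4), colon Lgr5Hi (n = 3), pylorus Lgr5Lo (n = 4) and colon Lgr5Lo (n = 3) cells, from left to right at each gene. Pylorus Lgr5Hi is the lowest of the 4 means for each gene shown, Kif11 for example at 6.11, against 7.71 in colon Lgr5Hi cells.

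Of 7 gland mucous cell genes 1, Creb3l4, was called for this difference, and 2 with the random block. Creb3l4 differed by 1.99 between Lgr5Hi and by -0.40 between Lgr5Lo cells, a difference of differences of 2.39 ± 0.40 (adjusted p = 0.0165). A4gnt averaged 10.34 in pylorus and 5.54 in colon Lgr5Hi cells, and 8.21 ± 0.96 in pylorus and 6.80 ± 0.82 in colon Lgr5Lo cells. Its difference of differences of 3.40 ± 0.75 missed the threshold (adjusted p = 0.0585), and it passed with the random block. Outside that list, Chad, a matrix protein, had 10.78 in pylorus and 4.73 in colon Lgr5Hi cells (6.05 ± 0.32), and a difference of differences of 2.28 ± 0.45. Rgs5, a regulator of G protein signalling that also marks pericytes, averaged 10.17 in pylorus and 3.15 in colon Lgr5Hi cells, and its second probe set gave 5.46 where the first gave 7.02. The difference of differences was 2.32 ± 0.48. Atp4a (-2.45 ± 0.44) and Ghrl (-2.57 ± 0.49) went the other way, their excess in pylorus being larger among dim cells.

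Peptide hormones were called in both directions. Of 16 hormone and endocrine genes 3 were called higher in pylorus and 4 lower, with a median of 0.11. Beside Gast (7.76 ± 0.20) the higher ones were Sst, somatostatin, at 10.62, 11.22, 9.60 and 9.86 in pylorus and 6.59, 5.62 and 7.71 in colon (3.68 ± 0.41), and Ghrl, ghrelin (3.63 ± 0.35). Lower in pylorus were Gcg, which encodes the glucagon-like peptides (-3.30 ± 0.42), Insl5, a hormone of colonic endocrine cells (-3.01 ± 0.34), Tac1 (-1.81 ± 0.40) and Sct, secretin (-1.94). Insl5 stood at 3.64, 3.15, 3.16 and 3.46 in pylorus and at 6.65, 5.78 and 6.66 in colon. The general endocrine markers Chga (0.53) and Neurod1 (0.31) were not called. Endocrine transcripts were thus measured in sorted Lgr5Hi cells of both organs, and whether they come from Lgr5-expressing or accompanying cells was not tested.

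Of 14 measured tuft cell genes 1 was called higher, Avil, an actin-binding protein (1.79 ± 0.31), where 7.26% of all genes were called. The list median was 0.72. The pyloric arrays differed widely here. Dclk1 stood at 8.66, 6.78, 4.68 and 6.15 in pylorus and at 4.78, 5.51 and 5.26 in colon, and Sh2d6 at 9.16, 6.93, 5.63 and 6.20 in pylorus and at 4.90, 5.85 and 5.40 in colon. Pylorus replicate 1 was the highest and replicate 3 the lowest for both genes. Without replicate 3, 4 tuft genes were called higher.

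Genes of the epithelial barrier were called in both directions. Of 21 claudins, which seal tight junctions, 2 were called higher in pylorus and 6 lower, with a median of -0.04. Beside Cldn18, Cldn2 was higher (1.01). Cldn15 stood at 4.60, 3.96, 4.65 and 4.13 in pylorus and at 7.10, 8.78 and 9.50 in colon (-4.13 ± 0.43). Cldn3 (-3.35 ± 0.38), Cldn8 (-2.75 ± 0.39) and Cldn7 (-1.96 ± 0.31) were also lower. Among 6 keratins of simple epithelium Krt23 was higher (3.04 ± 0.24) and Krt7 lower (-1.31 ± 0.24), whereas Krt8 was not called, at 10.11 in pylorus and 10.51 in colon.

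Of 23 measured ion transport genes 7 were called higher (6 without pylorus replicate 3) and 4 lower, with a median of 0.10. Slc9a4, a sodium-hydrogen exchanger of gastric epithelium, stood at 9.69, 9.65, 9.02 and 9.45 in pylorus and at 3.13, 3.45 and 3.71 in colon (6.02 ± 0.26). Slc26a9, an anion transporter, was higher by 4.27 ± 0.27. Cftr, the chloride channel, was lower (-1.72 ± 0.30), a call lost with all 25 arrays of the line in the estimate of the spread (adjusted p = 0.18) and kept when whole colon array 1 was left out of them (adjusted p = 0.000265). Clcn2, another chloride channel, was lower too (-1.33 ± 0.28). Kcnma1, a potassium channel, was lower on its brighter probe set (-1.78), and its other probe set gave 0.22.

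Water channels were also called in both directions. Aqp5 was the 1 of 11 called higher, and Aqp4 and Aqp11 were called lower. Aqp4, a water channel of basolateral membranes, stood at 4.17, 2.96, 4.12 and 3.81 in pylorus and at 7.83, 7.60 and 7.30 in colon (-3.81 ± 0.30). Aqp11, an intracellular member, was lower by a smaller margin (-1.44 ± 0.24). Among 13 enzymes of mucin glycans, A4gnt, Gcnt3 (2.17 ± 0.36) and C1galt1 (0.70 ± 0.20) were called higher. The C1galt1 call, made at an adjusted p of 0.0352, was lost without any 1 of 6 arrays, all but colon replicate 2, with values from 0.59 to 0.73. B4galnt2, which makes the Sda antigen of the colon, was lower (-4.83 ± 0.45), as was B3gnt6, which makes core 3 glycans (-3.18 ± 0.42). B3gnt6 averaged 3.40 in small intestine Lgr5Hi cells, where B4galnt2 averaged 9.56.

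Among other signalling families the BMP, Eph and EGF lists had calls in both directions, where 7.26% of all genes were called. Of 14 BMP pathway genes 4 were called higher, namely Bmp7 (1.82 ± 0.33), the target genes Id2 (1.78 ± 0.26) and Id3 (1.69 ± 0.23) and the receptor Bmpr1a (0.83 ± 0.23). Rgmb was the 1 called lower, and the median was 0.09. Without pylorus replicate 3 the counts were 5 higher and 0 lower. The call on Bmpr1a was lost without pylorus replicate 2 (0.69) or colon replicate 1 (0.88), 2 (0.84) or 3 (0.77). Of 17 measured Eph receptors and ephrins Efna5 was higher, at 7.11, 7.08, 7.40 and 6.82 in pylorus and 4.01, 3.95 and 3.60 in colon (3.25 ± 0.23), and Epha4 (-1.51 ± 0.25) and Efna1 (-1.36) were lower, Efna1 with overlapping groups. Of 14 Notch pathway genes Nrarp, a feedback inhibitor, was the single call (-1.34 ± 0.24), and without pylorus replicate 3 the ligand Jag2 was called higher (0.76). Of 12 measured EGF family genes Btc, betacellulin, was higher (0.98 ± 0.24) and Egfr lower (-0.85 ± 0.24), and without pylorus replicate 3 the counts were 1 higher and 0 lower. The calls on Btc, Egfr and Efna1 were lost without colon replicate 3 (0.94, -0.80 and -0.94), and those on Egfr and Efna1 without other single arrays too.

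Of 15 Reg lectins and antimicrobial genes Bpifb1 was called higher and Reg4, Retnlb and Wfdc2 lower, with a median of -0.05. Wfdc2, an antiprotease, lost its call without colon replicate 2 (-0.75). MHC class II genes were called lower at 2 of 6, with a median of -1.16. H2-Ab1 stood at 4.78, 5.85, 4.82 and 6.36 in pylorus and at 8.04, 7.96 and 9.26 in colon (-2.96 ± 0.44), and H2-Aa, whose groups overlapped, differed by -1.97 ± 0.51. The call on H2-Aa was lost without pylorus replicate 1 (-1.70) or colon replicate 2 (-1.67) or 3 (-1.47). H2-Ab1 averaged 9.58 in small intestine Lgr5Hi cells. Of 17 measured immune cell markers 0 were called in limma and 0 had an unadjusted p under 0.05, and their mean level per array was 3.33 to 3.57 in pylorus and 3.37 to 3.52 in colon, below every array median.

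Markers of fibroblasts and smooth muscle, endothelium and squamous forestomach were also near background. None of 12 fibroblast and smooth muscle, 6 endothelial or 7 measured squamous forestomach markers was called by limma. At an unadjusted p under 0.05 the counts were 1, 2 and 0. Their mean levels per array were 3.94 to 4.21, 3.49 to 3.72 and 3.16 to 3.78 in pylorus and 4.08 to 4.49, 3.34 to 3.62 and 3.29 to 3.47 in colon. Without pylorus replicate 3 Pdgfrb, a mural cell receptor, was called lower (-0.82). Of 9 measured pancreatic acinar genes 3 were called higher, Cela1 (3.70 ± 0.32), Clps (3.49 ± 0.28) and Try4 (1.72 ± 0.21), all digestive enzymes or their cofactors. This list was not near background, with mean levels per array of 5.69 to 5.82 in pylorus and 4.49 to 4.70 in colon. Its highest member mean was 12.37 in pylorus and 8.88 in colon. The list does not hold Sycn or Spink1, which were among the largest falls in pylorus. Sycn averaged 7.13 in pylorus and 12.19 in colon (-5.07 ± 0.65), and Spink1 5.37 and 10.55 (-5.19 ± 0.84). The trypsinogen gene Prss2 stood at 3.70, 2.79, 2.94 and 2.97 in pylorus and at 2.86, 2.14 and 2.88 in colon, below every array median. Clps averaged 11.28 in small intestine Lgr5Hi cells as well. Of 13 immediate early and heat shock genes, which respond to handling, 0 were called by limma, and 0 had an unadjusted p under 0.05. Pylorus replicate 4 was the highest pyloric array for Atf3 (7.93) and Egr1 (8.16).

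Other genes with the largest differences belong to none of these lists. Pla2g1b, a secreted phospholipase, stood at 11.78, 11.31, 11.14 and 11.56 in pylorus and at 3.01, 2.93 and 3.60 in colon (8.27 ± 0.24). Tmem213 (6.95 ± 0.28), Cfi, the complement factor I gene (6.56 ± 0.36), and Mucl3 (6.39 ± 0.42) were also higher. Rsph9, known from ciliary radial spokes and named for its difference of differences, was higher by 3.66 ± 0.23. Tm4sf20 (-5.95 ± 0.40), Adgrg7 (-5.79 ± 0.35), Ceacam10 (-5.36 ± 0.49) and Ccl6 (-5.22 ± 0.58) were lower. So were Muc13, a transmembrane mucin (-5.12 ± 0.45), Clca3b (-6.17 ± 0.53) and Sval1 (-6.07 ± 0.90). Sval1 was the least even of these, with 5.73 on pylorus replicate 3 beside 3.42 to 3.78 on the other pyloric arrays, and 9.05 on colon replicate 3 beside 10.97 and 10.67. Every one of the 15 largest rises and 15 largest falls was called with each of the 7 arrays left out in turn. They were picked by size among genes called with all 7 arrays, so other calls need not be as stable.

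Small intestine Lgr5Hi cells (n = 2) place some of these differences along the gut. Reg4 averaged 10.49, Ang4 11.22, Clca3b 11.59, Tm4sf20 10.43 and Cdh17 9.25 there, near the colonic means and far above the pyloric ones. Retnlb (4.31), Sval1 (2.07) and Insl5 (3.26) were as low there as in pylorus. Among genes high in pylorus, Gkn3 averaged 9.87 in small intestine, beside 12.62 in pylorus and 3.74 in colon, and Gata4 averaged 6.96, beside 7.47 and 5.14. Gata5 averaged 6.70, beside 8.00 and 4.47, and Ghrl 8.73, beside 8.03 and 4.40. Sox2 (2.21) and Nkx6-3 (4.42) were low there. Muc6 (3.74), Gast (4.63) and Aqp5 (4.34) were low in the small intestine. The small intestine was not tested against either organ here.

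**Figure D5:**
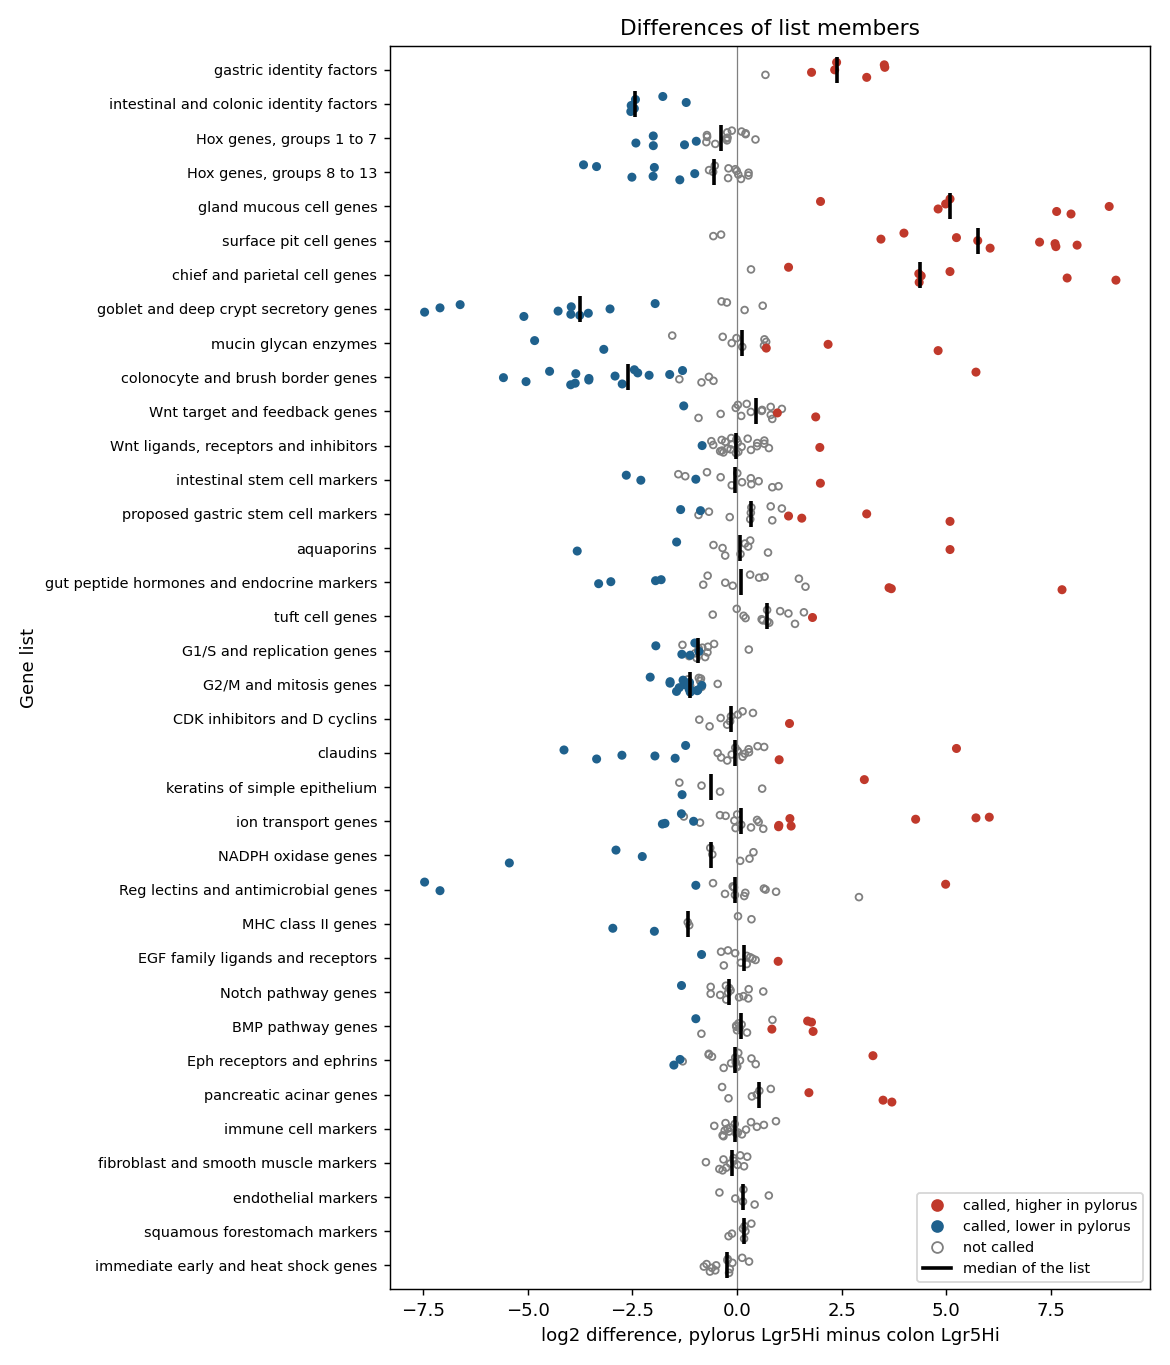
Log2 difference, pylorus minus colon Lgr5Hi, of each measured member of the gene lists, with filled points for called genes, open points for genes not called and a bar at each list's median. Gland mucous, pit, chief and parietal lists lie to the right with medians of 5.09, 5.75 and 4.37, and goblet and colonocyte lists to the left with medians of -3.75 and -2.60. Lists of Wnt ligands and receptors, immune, fibroblast and endothelial genes lie around 0, and the Wnt target list has a median of 0.46.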

How the data were processed

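Sorted cells were measured on Affymetrix mouse gene arrays from amplified cDNA, per the labels' protocols. The authors made the deposited log2 intensities of 42 arrays with RMA, and limma 3.26.8, R 3.2.3, oligo and Partek are also named in the submitters' processing notes without their roles. The 41345 probe sets held values from 0.574 to 13.61, with none missing. The few arrays in each group limit the precision.

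Probe sets with 1 gene symbol (23521) were kept, and those with several (1814) or none (16010) were not used. Where a gene had more than 1, as 1082 did, the probe set of highest mean stood for it, which gave 22180 genes. A linear model with 1 mean per sorted group of the IRES line (18 arrays, 6 groups, no whole tissue or crypt array) was estimated with limma 3.58.1 under R 4.3.3, with moderated variances (eBayes). Bright cells, dim cells and their difference of differences were tested between pylorus and colon. The labels call the samples biological replicates.

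The members and the 37 gene lists were chosen with earlier results of these data known, so list counts and medians are descriptions. No list carries a test, and 1, of red blood cell markers, had no measured member. Genes were named by a rule. It names Lgr5, Aqp5, Muc6, Gast, Cdx2 and Reg4, the 15 largest rises and 15 largest falls among called genes without overlap, up to 6 members of each list by smallest p, and the 5 largest differences of differences each way. Unnamed gene models, receptors of smell and sex-linked transcripts were left out of the largest changes.

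Equally numbered pylorus and colon Lgr5Hi arrays did not deviate together (r of -0.028, -0.027 and -0.218 over genes), so they were not paired. Lgr5Hi and Lgr5Lo arrays of an organ did, at 0.104 to 0.296 in pylorus and 0.136 to 0.242 in colon. On simulated data for the bright cell comparison (22180 genes) the fit recovered 40 of 100 genes changed by 1 on the log2 scale and 89 of 100 changed by 2, with 1 false call among 130. No other gene was changed there and the noise was independent between arrays. The data gave 1611 calls and hold arrays that deviate together, so these rates need not carry over. Alternatives covered the arrays in the fit, replicate blocks, moderation, probe set choice, normalization, a level filter and leaving out each array.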

Additional observations from a re-analysis of the deposited data

Results flagged for a closer look

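A sample far from the others of its group of 4 pylorus Lgr5Hi arrays was found at 13 of 228 named genes, and chance gives about 1 in 20 groups. The far array was the highest for Sval1 (5.73), Gata4 (7.93), Tac1 (3.34), Gfi1b (5.72), Egf (4.04), Cd3e (3.42) and Atf3 (7.93). It was the lowest for Pga5 (7.58), Krt8 (9.63), Kcnma1 (3.21), Ciita (4.54), Id4 (4.76) and Chad (10.02). For Sval1, Tac1, Pga5, Id4 and Chad it was pylorus replicate 3.

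The organ difference itself differed between bright and dim cells, by the test of the difference of differences, at 19 named genes. Pylorus minus colon was more positive among bright than dim cells for Slc9a3 (2.91), Creb3l4 (2.39), Rsph9 (2.33), Rgs5 (2.32), Chad (2.28), Cela1 (2.27) and Pigr (1.93). It was more negative among bright cells for S100g (-3.68), Lrr1 (-2.73), Ghrl (-2.57), Atp4a (-2.45), Depdc1a (-2.38), Hells (-2.35), Kif11 (-2.25), Nusap1 (-2.05), Cenpe (-1.94), Mcm6 (-1.84), Rrm1 (-1.74) and Cdc20 (-1.66). Pigr, which carries immunoglobulins across epithelium, differed by -0.57 among bright cells, where it was not called, and by -2.51 among dim cells. S100g, a calcium-binding protein, averaged 5.65 in pylorus and 6.78 in colon bright cells, and 9.18 ± 1.29 in pylorus and 6.62 ± 0.52 in colon dim cells.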

How the results depend on the processing

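The number of genes called between bright cells (1611) ranged from 1360 (the 7 arrays alone) to 2481 (all arrays but whole colon array 1) over the alternatives that kept every array of the comparison, and from 1153 to 1633 with each array left out in turn. It was 1771 with the replicate number as a fixed block and 1615 with organ and number as a random block, so the block changed no count by over 1.5 times there. Over the same alternatives the calls numbered 464 to 1046 higher and 652 to 1435 lower in pylorus. The median of all genes was 0.03, and was 0.06 after centring each array on its median and 0.01 after quantile normalization.

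Of 142 named genes that were called, 119 kept the call under every alternative, up to 20 a gene, and none reversed. The 23 that lost it under at least 1 were Bhlha15, Bmpr1a, Btc, C1galt1, Cdca7, Cdk1, Cftr, Cldn23, Cldn7, Dut, Efna1, Egfr, Fzd7, H2-Aa, Hnf4a, Hoxa7, Iqgap3, Mcm5, Nr1i2, Rgmb, Rrm1, Sp5 and Wfdc2. Of them 17 lost it without colon replicate 3. Many named genes were picked by large differences or small p in the main fit, so these counts do not describe all 1611 calls. Genes near 0 that were not called turned sign. With an array left out, Ciita (0.02) ranged from -0.069 to 0.199, Cdh5 (0.14) from -0.113 to 0.506 and Kdr (-0.04) from -0.182 to 0.111. Under the fixed replicate block Kdr gave 0.053.

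Dim cells gave 2352 calls with all 42 arrays, 1065 of them higher in pylorus, against 1441 and 570 otherwise, and 882 higher under the fixed replicate block. With an array left out they gave 958 to 1735, of which 359 to 745 were higher and 563 to 990 lower.

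The difference of differences (65 calls, 16 higher and 49 lower) was the least stable. It gave 231 with all 42 arrays (95 and 136), 196 under the random replicate block (68 and 128), 41 after median centring (9 and 32) and 33 without small intestine (9 and 24). The higher calls were 8 with 25 arrays, 32 under the fixed replicate block and 27 after quantile normalization, and the lower calls were 32 with trended and robust moderation. With an array left out it gave 4 to 111, of which 3 to 44 were higher and 1 to 95 lower. Whole colon array 1, whose markers go against its label, was in the fits with 25 and 42 arrays. Without it, an alternative chosen after its values were seen, they called 1841 genes in place of 1580 and 2481 in place of 2282 between bright cells, the last being 1046 higher and 1435 lower. Between dim cells all arrays but this one gave 2510 (1148 and 1362). For the difference of differences they gave 314 (142 and 172), and the arrays of the IRES line but this one gave 92 (28 and 64) in place of 50. None of the 142 called named genes lost its call in either fit without it, against 5 with all 25 arrays and 3 with all 42. The cause of the other shifts was not tested. Fewer arrays, and more groups sharing the spread, change what the fit can call by construction.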

Other observations

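The unsorted colon arrays of the line were not among the 18 of the fit. They entered only the alternatives with all 25 arrays of the line or all 42, where they add to the estimated spread. The array numbered 2 was also in the same fits without the array numbered 1. Their marker levels differed. The array numbered 1 held Muc6 at 10.85, Cdx2 at 4.43 and Reg4 at 3.21. The array numbered 2 held Muc6 at 3.80, Cdx2 at 8.04 and Reg4 at 10.69. Gast was low on both, at 5.13 and 5.20. The levels on the array numbered 1 go against its colon label, and why was not tested.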
